A study of Rattus norvegicus with 4 samples.

Results

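The chemokine genes of rat muscle were followed by the class of cell in which their transcripts lay. Chemokines are small secreted proteins that direct the movement of leukocytes and progenitor cells. The members are the gene symbols of the deposited gene table that consist of Ccl, Cxcl, Xcl or Cx3cl and a number. There were 34 members among 25399 genes. They were picked by symbol alone, but the pattern was set with earlier results of these data known. Transcripts of 33 members were counted in at least 1 analysed cell, and Ccl25 had none in any library.

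Single cells of 12 month old rats were measured in 4 droplet libraries of enzymatically digested muscle. The groups were extraocular muscle (EOM, the muscles that move the eye) labelled DMD, EOM labelled WT, tibialis anterior (TA, a limb muscle at the front of the lower leg) labelled DMD, and TA labelled WT, with 1 library in each. DMD commonly stands for Duchenne muscular dystrophy, the disease of dystrophin loss, and WT for wild type. No treatment is named, and the strain, the sex, the mutation and how many animals were used are not stated in the sources used here. The sample title and the disease state entry name opposite states in all 4 samples. Groups follow the disease state entry, as do the names of the deposited matrices. Every direction of labelled DMD over labelled WT would turn round if the titles were right, while comparisons between EOM and TA keep theirs.

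The analysed cells numbered 2261 in EOM labelled DMD, 1249 in EOM labelled WT, 7964 in TA labelled DMD and 2083 in TA labelled WT. Their unique molecular identifiers (UMIs, 1 per captured transcript end) summed to 12152568 in EOM labelled DMD, 6522117 in EOM labelled WT, 19269545 in TA labelled DMD and 6730142 in TA labelled WT. The median UMIs per cell were 4488 in EOM labelled DMD, 3650 in EOM labelled WT, 1224 in TA labelled DMD and 2484 in TA labelled WT. TA labelled DMD was the shallowest library, and 41.5% of its cells had fewer than 1000 UMIs, against 5.36 to 13.4% in the other libraries. Pairs of libraries shared 0 to 5 cell barcodes. Cells fell into 33 clusters, formed without the chemokine genes, and all but 4 were named "X-like" from marker genes that hold no member. A level is given in CPM, the UMIs of a gene per 1000000 UMIs of the cells in question, followed in brackets by its exact Poisson 95% interval. Intervals cover counting error only and leave out the spread between cells and animals, since 1 library a group allows no test. A gene was counted as higher or lower where CPM + 10 differed by at least 2-fold and both libraries together held at least 10 UMIs. Values over all cells of a library mix how many cells of a class were captured with the level per cell, and these were not separated.

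Each chemokine acts through a small set of G protein-coupled receptors. Ccl2 and Ccl7 draw monocytes through Ccr2, Cxcl1 and Cxcl2 draw neutrophils through Cxcr2, and Cxcl9, Cxcl10 and Cxcl11 draw activated T and NK cells through Cxcr3. Cxcl12 is made constitutively by stromal and vascular cells and acts through Cxcr4, with Ackr3 as a scavenger. NF-kB is known to induce many inflammatory chemokines, and interferon gamma to induce Cxcl9 and Cxcl10.

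Promoters were read from RefSeq (GRCr8) from 250 bases before to 50 after the transcript start, and 28 of the 34 members were matched. Ccl2, Ccl3, Ccl4, Ccl5, Ccl11 and Cxcl3 were not matched, so their promoters were not searched. An NF-kB-type motif, GGGNNNTTCC, and an interferon response element-type motif (ISRE-type), GAAANNGAAA, were searched on both strands. The NF-kB-type motif was in 5.37% of 33469 promoters and in 9 of the 28 members, namely Cxcl1, Cxcl2, Cxcl6, Cxcl10, Cxcl11, Ccl6, Ccl7, Ccl9 and Ccl20. The ISRE-type motif was in 3.92% of all promoters and in 2 members, Cxcl10 and Ccl19. A match is a run of letters and not a shown binding site. The 5 promoters printed belong to members of the vascular and macrophage-like results that follow. They lie at chr14:17479272-17479571 and chr14:17467206-17467505 on the minus strand, and at chr14:15988816-15989115, chr14:16006916-16007215 and chr10:67513845-67514144 on the plus strand, and each is written 5′ to 3′ on the strand of its gene. Capitals mark the matches. The last run of capitals of Cxcl1 and that of Cxcl10 each hold 2 NF-kB-type matches, on opposite strands and overlapping.
Cxcl1: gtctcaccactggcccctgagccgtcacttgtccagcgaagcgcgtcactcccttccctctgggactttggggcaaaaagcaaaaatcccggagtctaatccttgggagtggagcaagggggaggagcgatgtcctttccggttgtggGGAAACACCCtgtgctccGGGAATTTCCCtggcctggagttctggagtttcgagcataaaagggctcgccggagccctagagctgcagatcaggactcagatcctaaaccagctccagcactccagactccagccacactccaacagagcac
Cxcl2: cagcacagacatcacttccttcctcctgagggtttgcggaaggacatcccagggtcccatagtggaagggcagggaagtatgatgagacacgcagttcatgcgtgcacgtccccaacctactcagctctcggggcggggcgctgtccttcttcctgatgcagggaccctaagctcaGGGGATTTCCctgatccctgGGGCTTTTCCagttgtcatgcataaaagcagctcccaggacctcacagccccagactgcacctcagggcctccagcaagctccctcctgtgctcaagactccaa
Cxcl10: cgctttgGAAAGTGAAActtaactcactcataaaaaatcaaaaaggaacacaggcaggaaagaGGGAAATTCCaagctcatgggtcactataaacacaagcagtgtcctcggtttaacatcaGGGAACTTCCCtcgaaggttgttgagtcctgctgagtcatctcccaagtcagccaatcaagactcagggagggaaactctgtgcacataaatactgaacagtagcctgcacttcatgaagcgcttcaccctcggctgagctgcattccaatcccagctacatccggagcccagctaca
Cxcl9: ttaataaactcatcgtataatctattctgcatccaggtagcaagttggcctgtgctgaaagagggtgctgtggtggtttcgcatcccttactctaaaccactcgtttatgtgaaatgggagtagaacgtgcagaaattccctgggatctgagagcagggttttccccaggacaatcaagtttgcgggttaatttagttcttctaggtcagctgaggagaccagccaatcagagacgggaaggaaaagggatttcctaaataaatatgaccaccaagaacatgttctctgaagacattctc
Ccl7: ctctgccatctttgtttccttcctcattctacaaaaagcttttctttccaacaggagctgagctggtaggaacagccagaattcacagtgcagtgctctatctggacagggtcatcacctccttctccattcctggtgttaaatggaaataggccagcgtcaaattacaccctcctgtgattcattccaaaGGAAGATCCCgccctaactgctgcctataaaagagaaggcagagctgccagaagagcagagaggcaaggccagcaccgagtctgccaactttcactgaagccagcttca
Cxcl9 and Cxcl10 are direct neighbours in the GRCr8 gene order, and the window of Cxcl9 held no match to either motif while that of Cxcl10 held both. Ccl2, Ccl7, Ccl11, Ccl12 and Ccl1 form another run with no other coding gene between them, as do Ccl5, Ccl9, Ccl6, Ccl3 and Ccl4.

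Chemokine transcripts made up 5961 CPM in EOM labelled DMD, 4654 in EOM labelled WT, 3917 in TA labelled DMD and 3020.4 in TA labelled WT over all cells. Each library labelled DMD was above the library labelled WT of the same muscle, and both EOM libraries were above both TA libraries. The leading member differed between libraries. Cxcl14 came first with 18% of the chemokine UMIs in EOM labelled DMD and 25.8% in TA labelled DMD, while Cxcl12 came first with 31.1% in EOM labelled WT and 58% in TA labelled WT. The share of endothelial-like cells among all cells was 25.8% in EOM labelled DMD, 43.9% in EOM labelled WT, 36.3% in TA labelled DMD and 75.8% in TA labelled WT. Erythroid-like cells held 1.27% of all UMIs in EOM labelled DMD and 19.5% in EOM labelled WT. They held 2.17% in TA labelled DMD and 14% in TA labelled WT. Under the WT label only 40 of their UMIs in EOM and 70 in TA were chemokine UMIs. All their UMIs are part of the totals that CPM divides by. The part of this makeup in the levels and in the shares was not tested.

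Per UMI, lymphatic endothelial-like and NK cell-like cells were the richest sources. The lymphatic endothelial-like class, of 10 cells in each EOM library and 46 in TA labelled DMD, reached 38769.7 CPM in EOM labelled DMD, 100223 in EOM labelled WT and 22895 in TA labelled DMD, and 97% to 99.6% of that was Ccl21. NK cell-like cells held 22066 CPM in EOM labelled DMD, 18015 in EOM labelled WT, 10147 in TA labelled DMD and 31725 in TA labelled WT. Both classes were small, and most chemokine UMIs lay elsewhere. NK cell-like cells still held 25.6% of the chemokine UMIs in TA labelled WT, in 20 cells, and 2.96 to 8.88% in the other libraries. Endothelial-like cells held 59.2% of them in TA labelled WT, and FAP/fibroblast-like cells (fibro-adipogenic progenitors, the connective tissue progenitors of muscle) held 33.3% in EOM labelled DMD. Myofibre-like cells had 52.9 CPM in EOM labelled DMD, 48.4 in EOM labelled WT, 172 in TA labelled DMD and 35 in TA labelled WT. Erythroid-like cells, which should lack chemokines, had 1659 CPM in EOM labelled DMD, 31.4 in EOM labelled WT, 2095 in TA labelled DMD and 74.5 in TA labelled WT. The cells numbered 9 in EOM labelled DMD, 66 in EOM labelled WT, 272 in TA labelled DMD and 55 in TA labelled WT. In EOM labelled DMD 84% of it was Ccl21. Of the value in TA labelled DMD, Cxcl14 gave 1012 CPM and Cxcl12 gave 439 CPM. Levels of these members below that, outside their main classes in that library, cannot be told apart from free RNA or mixed droplets.

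**Figure D1:**
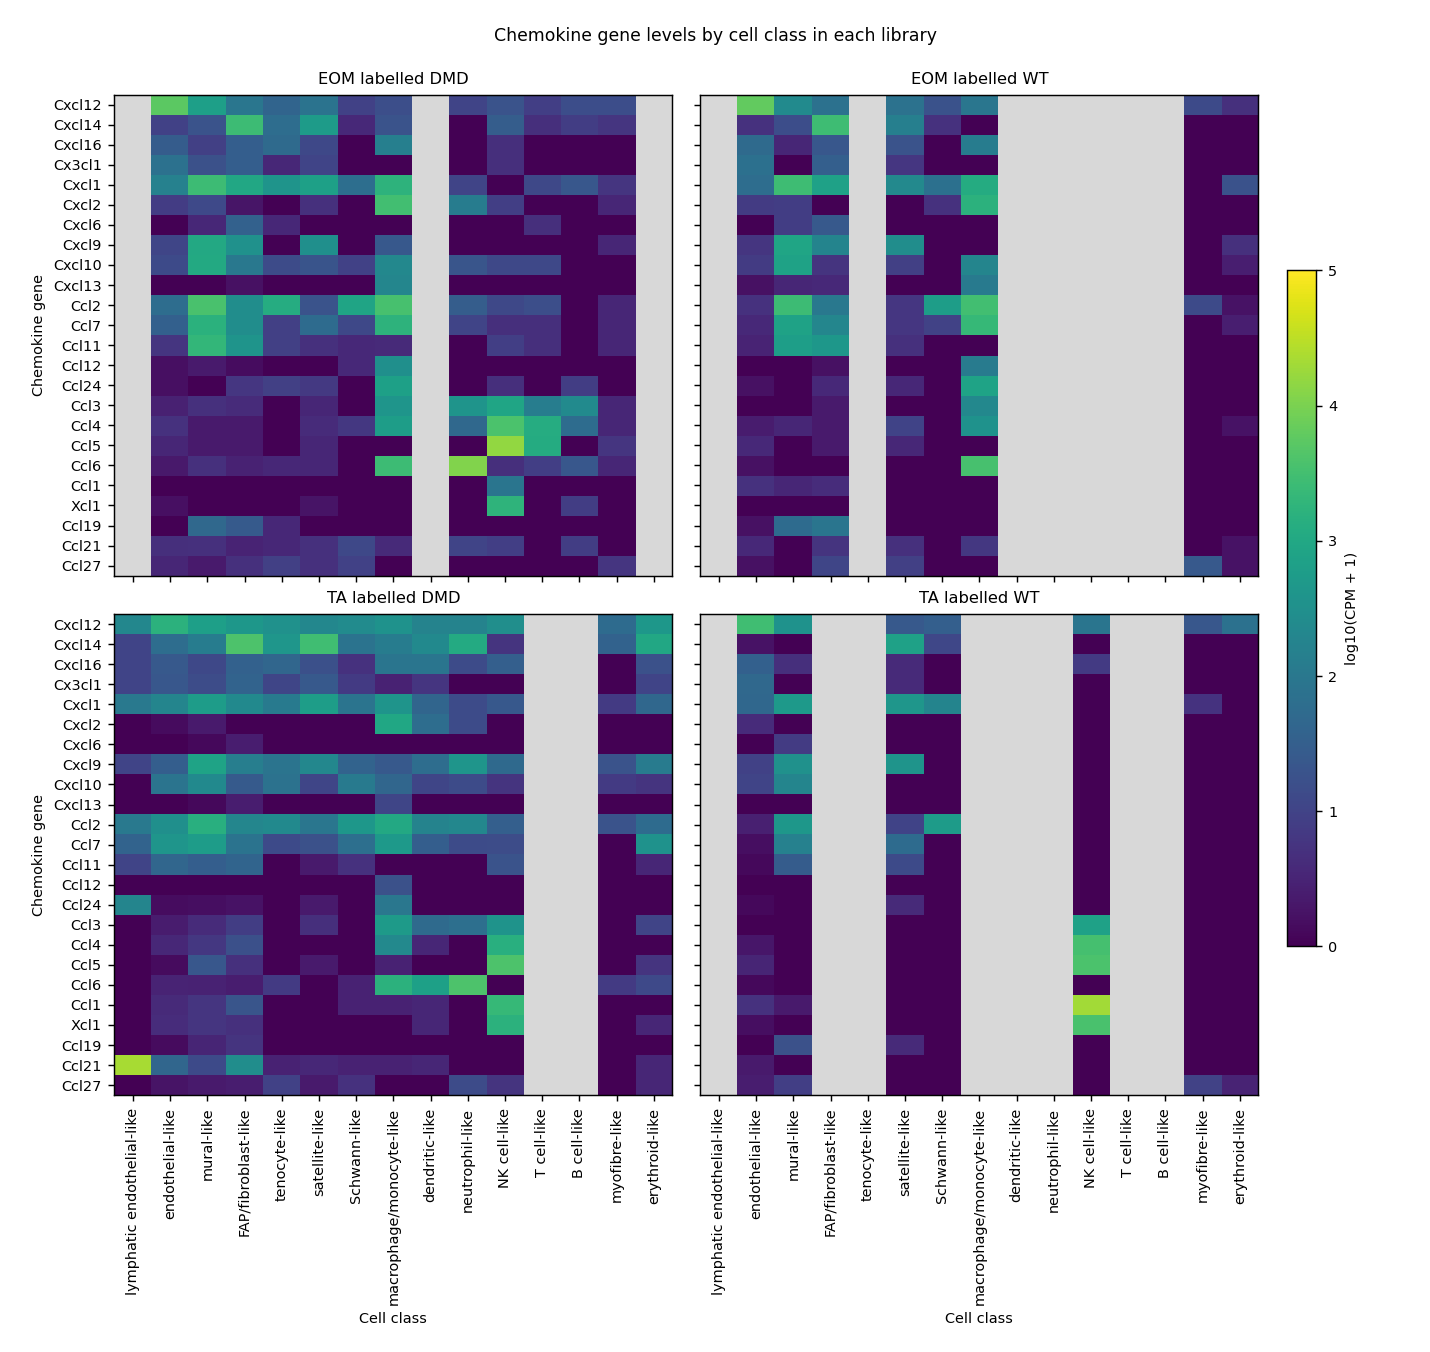
Level of the 24 chemokine genes with at least 100 UMIs (rows) in each cell class (columns), as log10(CPM + 1), with a panel per library; grey marks a class with fewer than 20 cells. Cxcl12 is bright in endothelial-like cells of all 4 panels, at 1617 to 6388 CPM, and Cxcl14 in FAP/fibroblast-like cells of EOM labelled DMD, EOM labelled WT and TA labelled DMD, at 2688 to 4028 CPM.

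Cxcl12, the homing signal of Cxcr4-bearing cells, was the endothelial member in every library. Its level in endothelial-like cells was 5602 CPM (5489–5718) in EOM labelled DMD, 6388 (6258–6520.4) in EOM labelled WT, 1617 (1589–1645) in TA labelled DMD and 2899 (2846–2953) in TA labelled WT. EOM lay above TA, 3.47-fold (3.37–3.56) among the libraries labelled DMD and 2.2-fold (2.14–2.27) among those labelled WT. The share of these cells with a Cxcl12 UMI was 94.9% in EOM labelled DMD, 96.4% in EOM labelled WT, 70.9% in TA labelled DMD and 92.8% in TA labelled WT, at median depths of 1771 to 2563.5 UMIs. Thinned to 1000 UMIs a cell, the shares were 93% in EOM labelled DMD, 93.9% in EOM labelled WT, 61.8% in TA labelled DMD and 84.7% in TA labelled WT. In myofibre-like cells, with medians of 987 to 1834 UMIs, the share was 2.34 to 7.92%. The lower level in TA labelled DMD went with 1 cluster. The 796 cells there of the endothelial-like cluster led by Selp and Plvap, genes of venous endothelium, had 232 CPM of Cxcl12, while the other 6 endothelial-like clusters had 1833 to 2967 CPM. Without that cluster Cxcl12 stood at 2634 CPM in TA labelled DMD and 2933 CPM in TA labelled WT.

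Cxcl14, a chemokine of many connective tissue and epithelial cells, belonged to the fibroblast side. In FAP/fibroblast-like cells it stood at 2688 CPM (2640.3–2736) in EOM labelled DMD, 2765 (2681–2851) in EOM labelled WT and 4028 (3919–4139) in TA labelled DMD. TA labelled WT had only 6 such cells, with 24 Cxcl14 UMIs. The share of all Cxcl14 UMIs in the class was 93.2% in EOM labelled DMD, 97% in EOM labelled WT and 26.6% in TA labelled DMD. In TA labelled DMD an unnamed cluster of 202 cells led by Sfrp1 and Prg4 held a further 49.2% of them, at 5852 (5735–5969.9) CPM. The 26.6% leaves that cluster out. It shares the leading genes Sfrp1, Prg4, Cilp, Sfrp4, Smoc2, Stmn2, Ccn5, Chi3l1 and Myoc with the FAP/fibroblast-like cluster led by Stmn2 and Sfrp1. The median UMIs per cell were 7872 in the unnamed cluster and 848 in the FAP/fibroblast-like one. Different clusters made up the FAP/fibroblast-like class in the 2 muscles. The cluster led by Ces1d and Pi16 held 572 of 671 of its cells in EOM labelled DMD, and the cluster led by Stmn2 and Sfrp1 held 1060 of 1101 in TA labelled DMD.

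Satellite-like cells, the muscle stem cells, were another source of Cxcl14. Their level was 565 CPM (524–609) in EOM labelled DMD, 142 (116–171) in EOM labelled WT, 2995 (2875–3119) in TA labelled DMD and 739 (649.8–838) in TA labelled WT. It was higher under the DMD label in both muscles, 3.99-fold (3.25–4.93) in EOM and 4.05-fold (3.55–4.64) in TA. Within the satellite-like cluster led by Nppc and Cpa1, which all 4 libraries hold, the Cxcl14 levels were 596 CPM in EOM labelled DMD, 142 in EOM labelled WT, 4354 in TA labelled DMD and 756 in TA labelled WT. In TA labelled DMD, 15 cells held 50% of the satellite-like Cxcl14 UMIs. Myofibre-like cells of that library had 36.8 CPM of Cxcl14 and erythroid-like cells 1012 CPM, and the part of free RNA in the TA difference was not tested.

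The neutrophil attractants Cxcl1 and Cxcl2 had different sources. In mural-like cells, the pericytes and smooth muscle of vessel walls, Cxcl1 stood at 2667 CPM (2554–2784) in EOM labelled DMD, 2844 (2684–3011) in EOM labelled WT, 588 (564–612) in TA labelled DMD and 478 (431–529) in TA labelled WT. EOM was higher, 4.54-fold (4.27–4.81) among the libraries labelled DMD and 5.95-fold (5.29–6.7) among those labelled WT. Macrophage/monocyte-like cells also held Cxcl1, at 1744 CPM (1645–1848) in EOM labelled DMD, 1192 (1038–1363) in EOM labelled WT and 381 (329–440.1) in TA labelled DMD. In satellite-like cells it stood at 708 CPM (662–756) in EOM labelled DMD, 229 (197–266) in EOM labelled WT, 601 (548–658) in TA labelled DMD and 427 (359–503) in TA labelled WT. The satellite-like and mural-like intervals overlap in both TA libraries.

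Cxcl2 lay mostly in macrophage/monocyte-like cells, in the 3 libraries that had at least 20 of them. The share of its UMIs that they held was 96.2% in EOM labelled DMD, 95.4% in EOM labelled WT and 82.4% in TA labelled DMD. Its level there was 3055 CPM (2923–3191) in EOM labelled DMD, 1621 (1439.9–1818) in EOM labelled WT and 933 (850.01–1023) in TA labelled DMD. TA labelled WT had 2 such cells and 12 Cxcl2 UMIs in all, all of them in 4 endothelial-like cells. Of the macrophage/monocyte-like cells of EOM labelled DMD, 28 had Cxcl1, 35 had Cxcl2 and 25 had both. In TA labelled DMD 22 had Cxcl1, 27 had Cxcl2 and 3 had both. The median depth of these cells was 10468.5 UMIs in EOM labelled DMD and 1463.5 in TA labelled DMD, and the part of depth in this overlap was not tested. Cxcl6, a further ligand of Cxcr2 in human, had 157 of its 164 UMIs in FAP/fibroblast-like cells of EOM labelled DMD and 36 of 40 in those of EOM labelled WT. Cxcl3 had 17 UMIs in EOM labelled DMD, 5 in EOM labelled WT, 9 in TA labelled DMD and 0 in TA labelled WT.

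Cxcl9 and Cxcl10 both peaked in mural-like cells among the vascular classes, and 1 mural-like cluster carried most of both. Over the class Cxcl9 stood at 1057 CPM (986–1132) in EOM labelled DMD, 875 (787–969.7) in EOM labelled WT, 802 (774–831) in TA labelled DMD and 337 (298–380.4) in TA labelled WT. Cxcl10 stood at 1071 CPM (999.8–1146) in EOM labelled DMD, 762 (679.97–850.4) in EOM labelled WT, 239.6 (225–255) in TA labelled DMD and 186 (158–219) in TA labelled WT. For Cxcl10 EOM was above TA under both labels, 4.47-fold (4.07–4.91) for DMD and 4.09-fold (3.35–5.003) for WT. The cluster led by Kcnj8 and Vtn, genes of pericytes, held a share of the mural-like Cxcl9 UMIs of 93.7% in EOM labelled DMD, 98.6% in EOM labelled WT, 75.9% in TA labelled DMD and 98.5% in TA labelled WT.

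Within the Kcnj8 and Vtn cluster the share of cells with a Cxcl9 UMI was 83.3% in EOM labelled DMD, 71.8% in EOM labelled WT, 87% in TA labelled DMD and 55.5% in TA labelled WT. The share with Cxcl10 was lower, 38.2% in EOM labelled DMD, 19.7% in EOM labelled WT, 25.3% in TA labelled DMD and 16.8% in TA labelled WT. The share of erythroid-like cells with a Cxcl9 UMI in TA labelled DMD was 12.5%, at a median of 1007.5 UMIs, where that of the mural-like class was 1172. Of the mural-like cells with Cxcl10, Cxcl9 was also seen in 38 of 52 in EOM labelled DMD, 13 of 18 in EOM labelled WT, 93 of 192 in TA labelled DMD and 10 of 24 in TA labelled WT. Few cells carried the bulk of Cxcl10, since the cells that held 50% of its mural-like UMIs, of those with any, were 4 of 52 in EOM labelled DMD, 2 of 18 in EOM labelled WT, 17 of 192 in TA labelled DMD and 3 of 24 in TA labelled WT.

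Satellite-like cells formed a source of Cxcl9 with little Cxcl10. Their Cxcl9 stood at 302 CPM (272–334) in EOM labelled DMD, 286 (249–326) in EOM labelled WT, 206 (176–241) in TA labelled DMD and 388 (324–461) in TA labelled WT. In the Nppc and Cpa1 cluster the share of cells with a Cxcl9 UMI was 51.8% in EOM labelled DMD, 59.1% in EOM labelled WT, 72.9% in TA labelled DMD and 73.5% in TA labelled WT. Of the same cells, those with Cxcl10 numbered 4 of 222 in EOM labelled DMD, 2 of 132 in EOM labelled WT, 4 of 59 in TA labelled DMD and 0 of 49 in TA labelled WT, where 0 UMIs have an upper 95% bound of 11.4 CPM. In TA labelled WT the satellite-like and mural-like intervals of Cxcl9 overlap. Cxcl11, the remaining Cxcr3 ligand, had 0 UMIs in EOM labelled DMD, 1 in EOM labelled WT, 11 in TA labelled DMD and 3 in TA labelled WT.

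**Figure D2:**
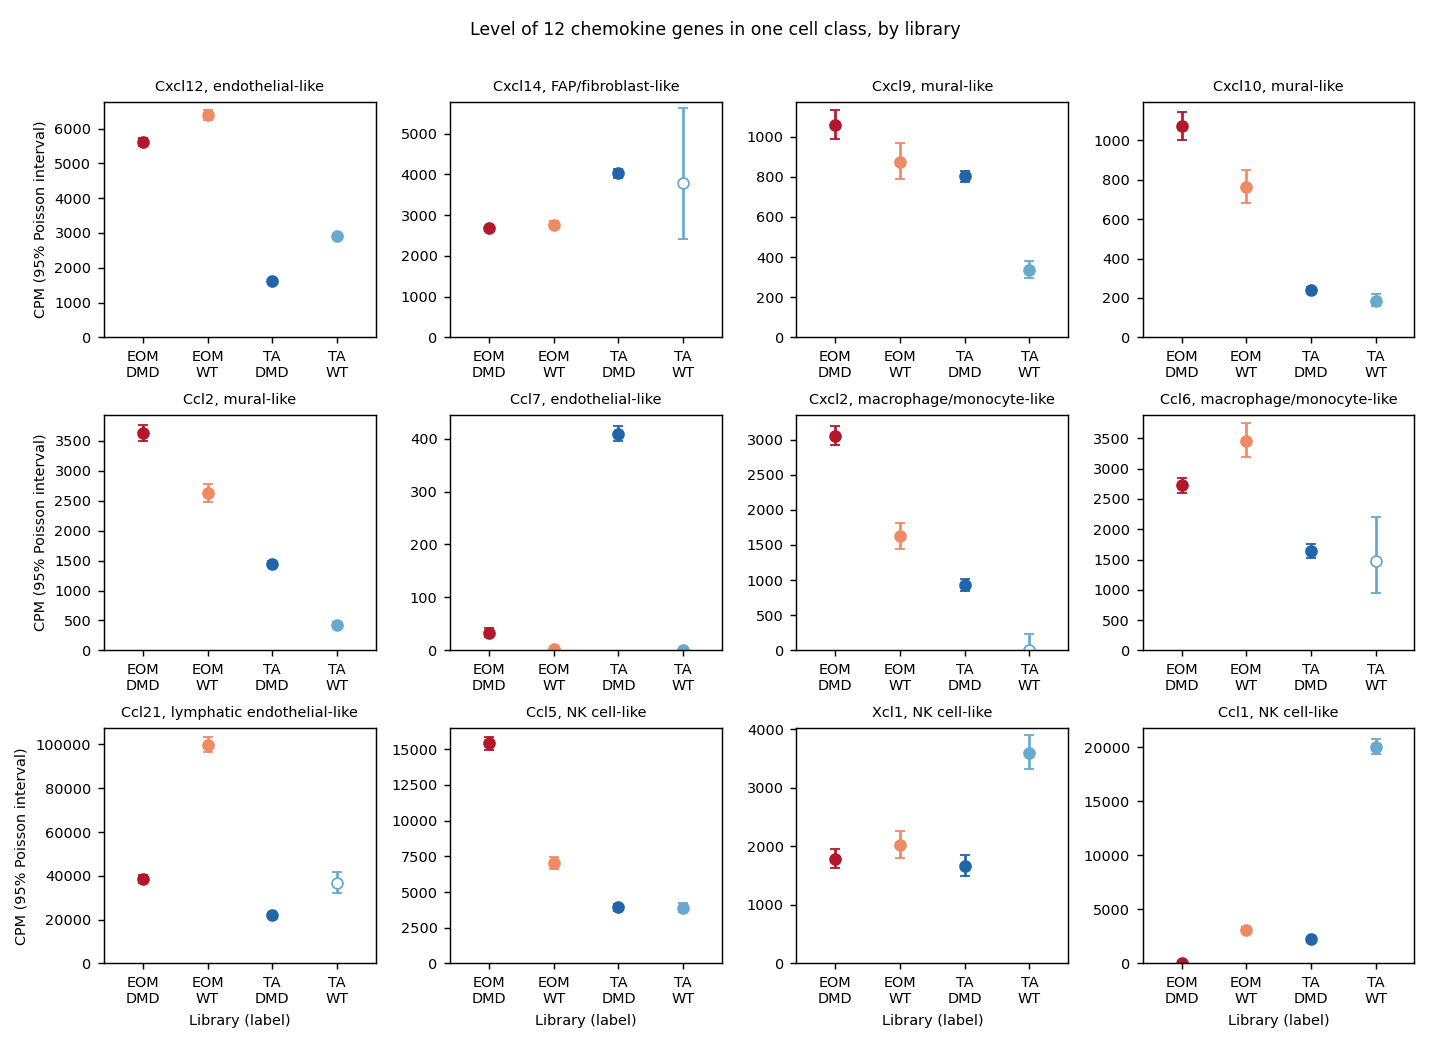
Level in CPM (vertical axis, linear, from 0) of 12 chemokine genes in the cell class named above each panel, for the 4 libraries; bars are exact Poisson 95% intervals and open circles mark a class with fewer than 10 cells. Cxcl12 in endothelial-like cells stands at 5602 and 6388 CPM in the EOM libraries labelled DMD and WT, above 1617 and 2899 CPM in the TA libraries labelled DMD and WT, and Ccl7 in endothelial-like cells reaches 409 CPM in TA labelled DMD.

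The monocyte attractants Ccl2 and Ccl7 were spread over more classes. Ccl2 in mural-like cells stood at 3629 CPM (3497–3765) in EOM labelled DMD, 2625 (2471–2785) in EOM labelled WT, 1448 (1411–1486) in TA labelled DMD and 432 (388–481) in TA labelled WT. Ccl7 followed the same order there, at 1536 CPM (1450–1625) in EOM labelled DMD, 776 (694–866) in EOM labelled WT, 569.9 (546–594) in TA labelled DMD and 153 (127–183) in TA labelled WT. In macrophage/monocyte-like cells Ccl2 stood at 3485 CPM (3344–3630.02) in EOM labelled DMD, 3108 (2855–3377) in EOM labelled WT and 1033 (945–1127) in TA labelled DMD, and Ccl7 at 1685 CPM (1587–1787) in EOM labelled DMD, 2217 (2004–2446) in EOM labelled WT and 505 (444–572) in TA labelled DMD. The mural-like and macrophage/monocyte-like intervals of Ccl2 overlap in EOM labelled DMD. Schwann-like cells, the glia of nerves, held Ccl2 at 818 CPM in EOM labelled DMD, 603 in EOM labelled WT, 444 in TA labelled DMD and 562 in TA labelled WT. The 14 mast cell-like cells of EOM labelled DMD had 13589 (12809–14403) CPM of Ccl2, in 13 cells.

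Within mural-like cells the cluster led by Inmt and Adra2a carried most Ccl7. Its share of the mural-like Ccl7 UMIs was 80% in EOM labelled DMD, 84.9% in TA labelled DMD and 68.6% in TA labelled WT, and its cells numbered 20 in EOM labelled DMD, 137 in TA labelled DMD and 13 in TA labelled WT. EOM labelled WT had 7 cells of this cluster, too few to give a level. The Ccl7 level was 6334 CPM in EOM labelled DMD, 2362 in TA labelled DMD and 1094 in TA labelled WT, and the Ccl2 level 10267 CPM in EOM labelled DMD, 3517 in TA labelled DMD and 514 in TA labelled WT. Ccl11, the eosinophil attractant eotaxin, stood there at 8987 CPM in EOM labelled DMD, 107 in TA labelled DMD and 264 in TA labelled WT, and the share of cells with a UMI was 90% in EOM labelled DMD, 13.9% in TA labelled DMD and 15.4% in TA labelled WT. In the Kcnj8 and Vtn cluster the share of cells with Ccl2 was 53.9% in EOM labelled DMD, 47.9% in EOM labelled WT, 44.4% in TA labelled DMD and 26.1% in TA labelled WT, and that with Ccl7 was 9.8% in EOM labelled DMD, 5.63% in EOM labelled WT, 8.43% in TA labelled DMD and 5.04% in TA labelled WT.

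Endothelial-like cells added Ccl2 and Ccl7 in TA labelled DMD. The Ccl7 UMIs of this class numbered 54 in EOM labelled DMD, 4 in EOM labelled WT, 3282 in TA labelled DMD and 2 in TA labelled WT. The cells with any were 9 of 584 in EOM labelled DMD, 4 of 548 in EOM labelled WT, 475 of 2893 in TA labelled DMD and 2 of 1579 in TA labelled WT. The Selp and Plvap cluster held 97.6% of the UMIs of TA labelled DMD, at 943 CPM (911–977) and in 52.1% of its cells, while the other 6 clusters had 3.89 to 115 CPM. Ccl2 lay in the same cluster, with 95.3% of 2425 UMIs at 681 CPM, as did Ccl11, with 98.6% of 348 UMIs. Of the endothelial-like cells of TA labelled DMD, 427 had Ccl2, 475 had Ccl7 and 262 had both. The cluster had 22 cells in EOM labelled DMD, with 47 Ccl7 UMIs in 2 of them, and 12 cells in TA labelled WT, with none. A count of 0 in those 12 cells has an upper 95% bound of 74.7 CPM. Erythroid-like cells of TA labelled DMD had 351 CPM of Ccl7, with 50% of it in 6 cells, and its 101 myofibre-like cells had 0 UMIs, with an upper bound of 22.6 CPM.

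**Figure D3:**
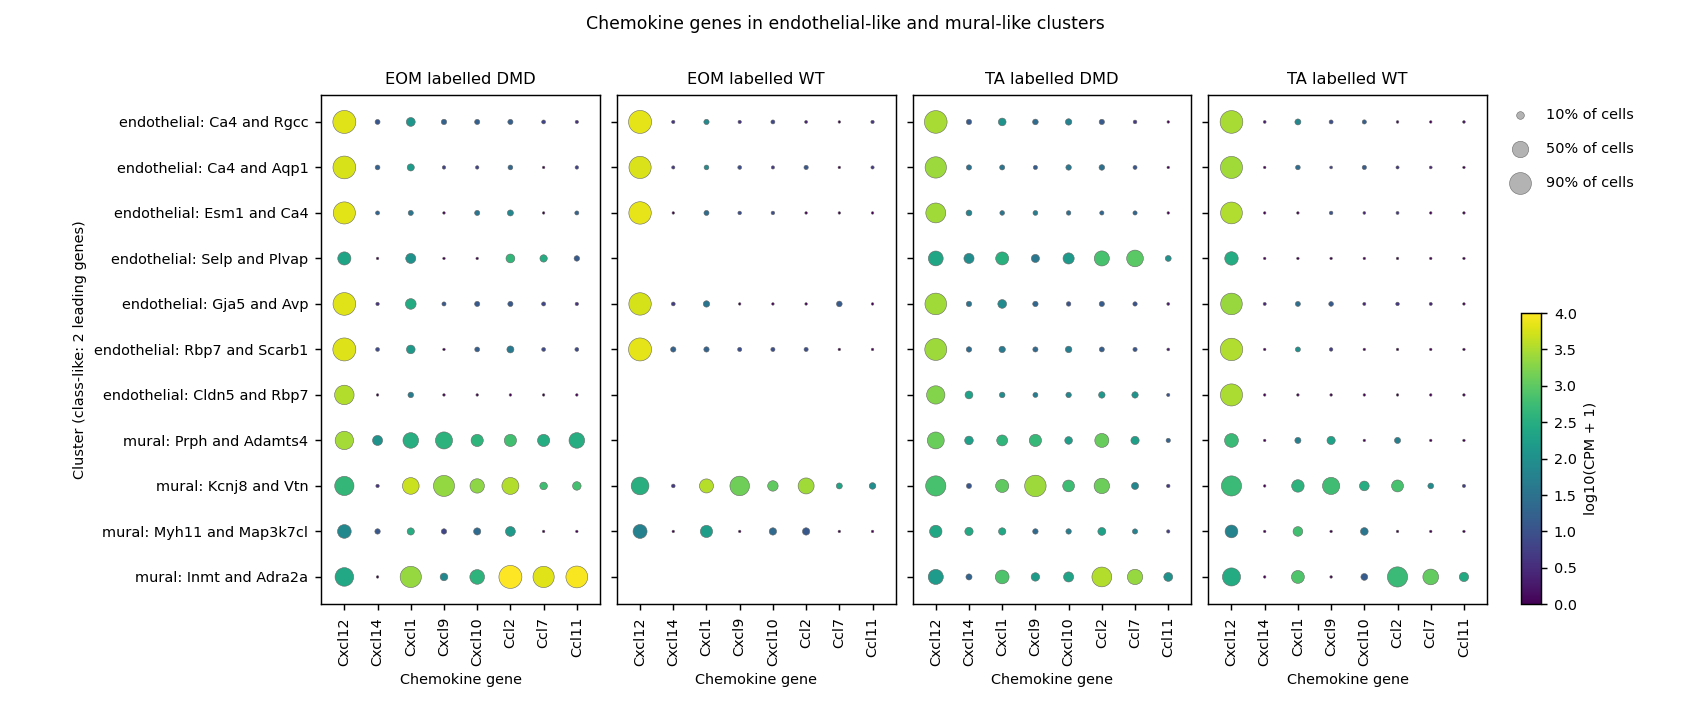
Chemokine genes in the endothelial-like and mural-like clusters, named by their 2 leading genes, in each library; colour is log10(CPM + 1), dot size grows with the share of cells with a UMI, and clusters with fewer than 10 cells in a library are not drawn. Ccl7 is seen in 52.1% of Selp and Plvap cells of TA labelled DMD, and Cxcl9 in 55.5 to 87% of Kcnj8 and Vtn cells over the 4 panels.

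Ccl11 as a whole was higher in EOM. In mural-like cells it stood at 2071 CPM (1971–2174) in EOM labelled DMD, 646 (571–728) in EOM labelled WT, 29.6 (24.5–35.5) in TA labelled DMD and 27.9 (17.5–42.2) in TA labelled WT. EOM was 69.9-fold (57.9–85.2) higher among the libraries labelled DMD and 23.2-fold (15–37.6) among those labelled WT. In FAP/fibroblast-like cells Ccl11 stood at 393 CPM (375–412) in EOM labelled DMD, 448 (414–483) in EOM labelled WT and 40.4 (30.2–53) in TA labelled DMD. Ccl24, another eotaxin, stood in macrophage/monocyte-like cells at 690.3 CPM (628–757) in EOM labelled DMD, 796 (671–938) in EOM labelled WT and 95.4 (70.1–127) in TA labelled DMD. In TA labelled DMD these cells held 47 of its 118 UMIs, and the lymphatic endothelial-like level was 189 (115–291) CPM. Ccl12, a monocyte attractant in mouse, had 207 of its 212 UMIs in macrophage/monocyte-like cells of EOM labelled DMD, and 1 cell held 50% of its UMIs in that library.

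NK cell-like cells were the main source of Xcl1, Ccl5, Ccl4 and Ccl1. Ccl1 and Ccl5 lead this cluster, although no chemokine took part in forming it. Xcl1, which draws cross-presenting dendritic cells through Xcr1, stood at 1779.9 CPM (1625–1946) in EOM labelled DMD, 2025 (1804–2267) in EOM labelled WT, 1665 (1499–1845) in TA labelled DMD and 3599 (3314–3901) in TA labelled WT. The share of all Xcl1 UMIs in the class was 99.4% in EOM labelled DMD, 99.3% in EOM labelled WT, 85.2% in TA labelled DMD and 99.7% in TA labelled WT. Ccl5, an attractant of T cells and monocytes, stood at 15399.8 CPM (14936–15874) in EOM labelled DMD, 7025 (6607–7463) in EOM labelled WT, 3925 (3668–4196) in TA labelled DMD and 3903 (3607–4217) in TA labelled WT. The NK cell-like cells with a Ccl5 UMI were 31 of 37 in EOM labelled DMD, 11 of 16 in EOM labelled WT, 19 of 117 in TA labelled DMD and 6 of 20 in TA labelled WT. Ccl4, a macrophage inflammatory protein, stood at 3807 CPM (3578–4046) in EOM labelled DMD, 4358 (4030.2–4706) in EOM labelled WT, 1434 (1280.2–1601) in TA labelled DMD and 3349 (3075–3641) in TA labelled WT. The median UMIs per cell of the class were 7119 in EOM labelled DMD, 7377.5 in EOM labelled WT, 1044 in TA labelled DMD and 7645.5 in TA labelled WT.

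Ccl1, a ligand of Ccr8, was among the least evenly held members. Its UMIs in NK cell-like cells numbered 24 in EOM labelled DMD, 466 in EOM labelled WT, 495 in TA labelled DMD and 3292 in TA labelled WT. The cells with any were 4 of 37 in EOM labelled DMD, 4 of 16 in EOM labelled WT, 30 of 117 in TA labelled DMD and 8 of 20 in TA labelled WT. The levels were 88.4 CPM in EOM labelled DMD, 3115 in EOM labelled WT, 2246 in TA labelled DMD and 20046 in TA labelled WT. Of the cells with any, 2 of 4 in EOM labelled DMD, 1 of 4 in EOM labelled WT, 6 of 30 in TA labelled DMD and 2 of 8 in TA labelled WT held 50% of the UMIs. Of the NK cell-like cells with Ccl1, those that also had Xcl1 were 4 of 4 in EOM labelled DMD, 26 of 30 in TA labelled DMD and 8 of 8 in TA labelled WT. Ccl3, another macrophage inflammatory protein, had several sources. It stood in NK cell-like cells at 873 CPM in EOM labelled DMD, 1451 in EOM labelled WT, 372 in TA labelled DMD and 719 in TA labelled WT. An unnamed cluster led by Fcnb and Plac8 had 2496 CPM in EOM labelled DMD, 3548 in EOM labelled WT, 155 in TA labelled DMD and 311 in TA labelled WT. Macrophage/monocyte-like cells had 403 CPM (356–454) in EOM labelled DMD, 212 (149.8–290.5) in EOM labelled WT and 532 (469–600.04) in TA labelled DMD, and held 262 of the 462 Ccl3 UMIs of TA labelled DMD. In EOM labelled WT 2 of 10 T cell-like cells held 115 of 663 UMIs.

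Ccl6, a rodent ligand of Ccr1, lay in myeloid cells. Neutrophil-like cells held 11271 CPM (10630.3–11940.3) in EOM labelled DMD and 4101 (3659.6–4582) in TA labelled DMD. The cells with a Ccl6 UMI were 36 of 36 in EOM labelled DMD and 40 of 50 in TA labelled DMD. Macrophage/monocyte-like cells held 2723 CPM (2599–2852) in EOM labelled DMD, 3464 (3197–3748) in EOM labelled WT and 1635 (1524–1752) in TA labelled DMD. Cxcl13, the B cell attractant, had a UMI in macrophage/monocyte-like cells that numbered 21 of 64 in EOM labelled DMD, 4 of 21 in EOM labelled WT and 4 of 172 in TA labelled DMD, at 197 CPM in EOM labelled DMD, 111 in EOM labelled WT and 10.1 in TA labelled DMD. Ccl17, a ligand of Ccr4, had 41 of its 46 UMIs of TA labelled DMD in dendritic-like cells.

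Ccl21, which guides Ccr7-bearing cells into lymphatic vessels, lay in the lymphatic endothelial-like cells, whose cluster it leads. Its UMIs there numbered 1763 in EOM labelled DMD, 3082 in EOM labelled WT, 2354 in TA labelled DMD and 214 in TA labelled WT. The cells with any were 7 of 10 in EOM labelled DMD, 7 of 10 in EOM labelled WT, 20 of 46 in TA labelled DMD and 1 of 1 in TA labelled WT. In TA labelled DMD, 367 further UMIs lay in 18 FAP/fibroblast-like cells and 348 in 64 endothelial-like cells. Ccl19, the other Ccr7 ligand, had 154 UMIs in EOM labelled DMD, 158 in EOM labelled WT, 19 in TA labelled DMD and 14 in TA labelled WT. Ccl27 had 39 UMIs in EOM labelled DMD, 25 in EOM labelled WT, 33 in TA labelled DMD and 16 in TA labelled WT. Ccl27, Ccl19 and Ccl21 have near-identical copies in mouse, and reads shared between copies in rat would make these counts uncertain.

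The membrane-anchored members were low. Cx3cl1, which holds Cx3cr1-bearing monocytes and NK cells, stood in endothelial-like cells at 72 CPM (59.6–86.1) in EOM labelled DMD, 69.3 (56.3–84.4) in EOM labelled WT, 21.8 (18.7–25.3) in TA labelled DMD and 47.3 (40.7–54.6) in TA labelled WT. The intervals of the 2 EOM libraries overlap. In FAP/fibroblast-like cells Cx3cl1 stood at 30.5 CPM (25.6–36) in EOM labelled DMD, 32.3 (23.8–42.8) in EOM labelled WT and 38.1 (28.2–50.4) in TA labelled DMD, below the endothelial-like level in both EOM libraries and above it in TA labelled DMD. Cxcl16, the ligand of Cxcr6, stood in macrophage/monocyte-like cells at 141 CPM (114–172) in EOM labelled DMD, 123 (76.8–186) in EOM labelled WT and 85.2 (61.4–115) in TA labelled DMD. Few UMIs were found for the remaining members over all 4 libraries, with 60 for Ccl9, 21 for Ccl22, 17 for Cxcl17, 4 for Ccl20, 3 for Ccl28 and 1 for Ccl26.

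Over all cells, TA labelled DMD was higher than TA labelled WT in 10 of 27 members with enough UMIs and lower in 3, against 2.8% higher and 1.42% lower of 14462 genes. The median log2 ratio was 0.07 over these members and 0.03 over all genes compared. The higher members were Cxcl14 (17-fold), Cxcl2 (16.2-fold), Ccl7 (13.7-fold), Ccl2 (8.14-fold), Ccl11, Ccl21, Cxcl10, Ccl6, Cxcl9 and Cxcl1. The lower members were Ccl1, Xcl1 and Ccl4, which are all NK cell-like members: Ccl1 was lower 16.6-fold (15.2–18.2), Xcl1 3.94-fold (3.47–4.47) and Ccl4 2.98-fold (2.64–3.36). These rest on few cells. With all cells the log2 ratio of CPM + 10 was -3.66 for Ccl1, -1.29 for Ccl4, -1.60 for Xcl1 and 1.73 for Cxcl2. Without the 5 cells with most UMIs of the member in each library, that log2 ratio was 1.10 for Ccl1, 0.36 for Ccl4, -0.27 for Xcl1 and 0.92 for Cxcl2. FAP/fibroblast-like cells, a main source of Cxcl14, made up 13.8% of the cells of TA labelled DMD and 0.288% of those of TA labelled WT, and the part of this makeup in the Cxcl14 ratio was not tested.

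In endothelial-like cells 8 of 19 members were higher in TA labelled DMD and none was lower, against 2.88% higher and 1.76% lower of 12108 genes. The median log2 ratio was 0.24 over these members and -0.06 over all genes compared. Ccl7 had 3282 UMIs in TA labelled DMD and 2 in TA labelled WT, a ratio of 805 (223–6650.3), and Ccl2 had 2425 and 7, a ratio of 169.95 (82.4–423). The others were Ccl11, Cxcl14, Ccl21, Cxcl10 (8.64-fold), Cxcl1 (4.04-fold) and Cxcl9 (3.63-fold). The Selp and Plvap cluster held 796 of 2893 cells of the class in TA labelled DMD and 12 of 1579 in TA labelled WT. Without that cluster 5 of 14 members were higher, against 1.21% of 11339 genes, and Cxcl1, Cxcl9 and Ccl11 were no longer among them. Ccl7 then stood at 16.9 CPM in TA labelled DMD and 0.515 CPM in TA labelled WT, and Ccl2 at 24.4 and 1.8 CPM. Cxcl14 stood at 39.4 CPM in TA labelled DMD without that cluster, below its level in the erythroid-like cells of the library. Myofibre-like cells of TA labelled DMD had 18.4 (3.8–53.8) CPM of Ccl2 and 0 CPM of Ccl7, with an upper bound of 22.6 CPM. The remaining Ccl2 and Ccl7 therefore cannot be told apart from free RNA in that library. For Cxcl14, NK cell-like cells of TA labelled DMD lay lower, at 4.54 (0.115–25.3) CPM, while its erythroid-like cells lay higher. The part of free RNA in the remaining Cxcl14 was not tested.

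In mural-like cells 7 of 18 members were higher in TA labelled DMD and 1 was lower, against 3.35% higher and 1.65% lower of 11099 genes. The median log2 ratio was 0.61 over these members and -0.08 over all genes compared. Ccl7 was higher 3.71-fold (3.09–4.5), Ccl2 3.35-fold (3.001–3.75) and Cxcl9 2.38-fold (2.1–2.7). Cxcl14 had 494 UMIs in TA labelled DMD and 0 in TA labelled WT, at least 33.1-fold higher against a floor of 3 counts in the mural-like cells of TA labelled WT. Its mural-like level in TA labelled DMD lay below that of the erythroid-like cells of that library, and the part of free RNA in this difference was not tested. Ccl5, Ccl21 and Cx3cl1 had 85, 47 and 53 UMIs in TA labelled DMD and 0 in TA labelled WT. Ccl19 was the lower member, with 9 UMIs in TA labelled DMD and 13 in TA labelled WT. Different clusters made up the class in the 2 libraries. The cluster led by Prph and Adamts4 held 807 of 1659 mural-like cells in TA labelled DMD and 17 of 179 in TA labelled WT, and the Kcnj8 and Vtn cluster held 261 of 1659 and 119 of 179. Within the Kcnj8 and Vtn cluster Cxcl9 stood at 2583 CPM in TA labelled DMD and 587 CPM in TA labelled WT, and Ccl2 at 1268 and 674 CPM.

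In satellite-like cells 4 of 8 members were higher in TA labelled DMD and 1 was lower, against 7.34% higher and 4.15% lower of 8284 genes. Different clusters made up the class: the cluster led by C1qtnf3 and Cdkn2a held 256 of 315 of them in TA labelled DMD and 7 of 56 in TA labelled WT, where the Nppc and Cpa1 cluster held 49 of 56. The higher ones were Cxcl14, Cxcl12 (8.36-fold), Ccl2 and Cx3cl1, with 71 UMIs of Ccl2 in TA labelled DMD and 3 in TA labelled WT, and 19 UMIs of Cx3cl1 in TA labelled DMD and 1 in TA labelled WT. Cxcl12 stood at 439 CPM in erythroid-like cells of TA labelled DMD and at 201 CPM in its satellite-like cells. The lower one was Ccl7, with 13 UMIs in TA labelled DMD and 18 in TA labelled WT. In erythroid-like cells all 6 of 6 members with enough UMIs were higher in TA labelled DMD, against 92.1% higher and 1.67% lower of 4680 genes, and in myofibre-like cells 1 of 1, Cxcl12, was higher, against 15.4% higher and 16.9% lower of 2924 genes, so that nothing is read from either count.

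Over all cells of EOM, 6 of 28 members were higher in EOM labelled DMD and 2 were lower, against 1.27% higher and 0.375% lower of 14151 genes. The median log2 ratio was 0.56 over these members and 0.06 over all genes compared. The higher members were Ccl12 (5.17-fold), Cxcl2 (3.69-fold), Ccl2 (2.5-fold), Ccl6, Ccl5 and Cxcl10 (2.19-fold). Ccl12 was low, at 17.4 CPM in EOM labelled DMD and 3.37 CPM in EOM labelled WT, and few cells carried the bulk of it in EOM labelled DMD. Ccl1 was lower 37.1-fold (24.6–58.5) and Ccl21 2.86-fold (2.71–3.03). Without the 5 cells with most UMIs of each member 10 members were higher, and the log2 ratio was -0.21 for Ccl1 and -0.26 for Ccl21, both within 2-fold. With mitochondrial, haemoglobin and ribosomal protein UMIs left out of the totals 3 were higher.

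In endothelial-like cells 3 of 12 members were higher in EOM labelled DMD and none was lower, against 1% higher and 0.572% lower of 9792 genes. Cxcl1 was higher 2.61-fold (2.04–3.38). Ccl2 had 99 UMIs in EOM labelled DMD and 6 in EOM labelled WT, and Ccl7 54 and 4. Without the Selp and Plvap cluster Ccl7 had 7 UMIs in EOM labelled DMD and 4 in EOM labelled WT. In mural-like cells 3 of 11 members were higher and none was lower, against 4.48% higher and 2.16% lower of 8394 genes. Ccl11 was higher 3.21-fold (2.82–3.66) and Cxcl12 2.61-fold (2.11–3.26), and Cx3cl1 had 13 UMIs in EOM labelled DMD and 0 in EOM labelled WT. The Prph and Adamts4 cluster, with 11 cells, held 308 of the 512 mural-like Cxcl12 UMIs of EOM labelled DMD.

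In FAP/fibroblast-like cells 2 of 16 members were higher in EOM labelled DMD and 1 was lower, against 0.384% higher and 0.5% lower of 11200 genes. Cxcl10 was higher 21.3-fold (10.3–53.3), with 50% of its 454 UMIs in 2 cells, and Ccl2 2.85-fold (2.41–3.41). Ccl19 was lower 3.52-fold (2.72–4.57). In satellite-like cells 3 of 11 members were higher and none was lower, against 1.09% higher and 1.66% lower of 9300 genes. They were Cxcl14, Cxcl1 (3.09-fold) and Ccl7, with 67 UMIs in EOM labelled DMD and 4 in EOM labelled WT.

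**Figure D4:**
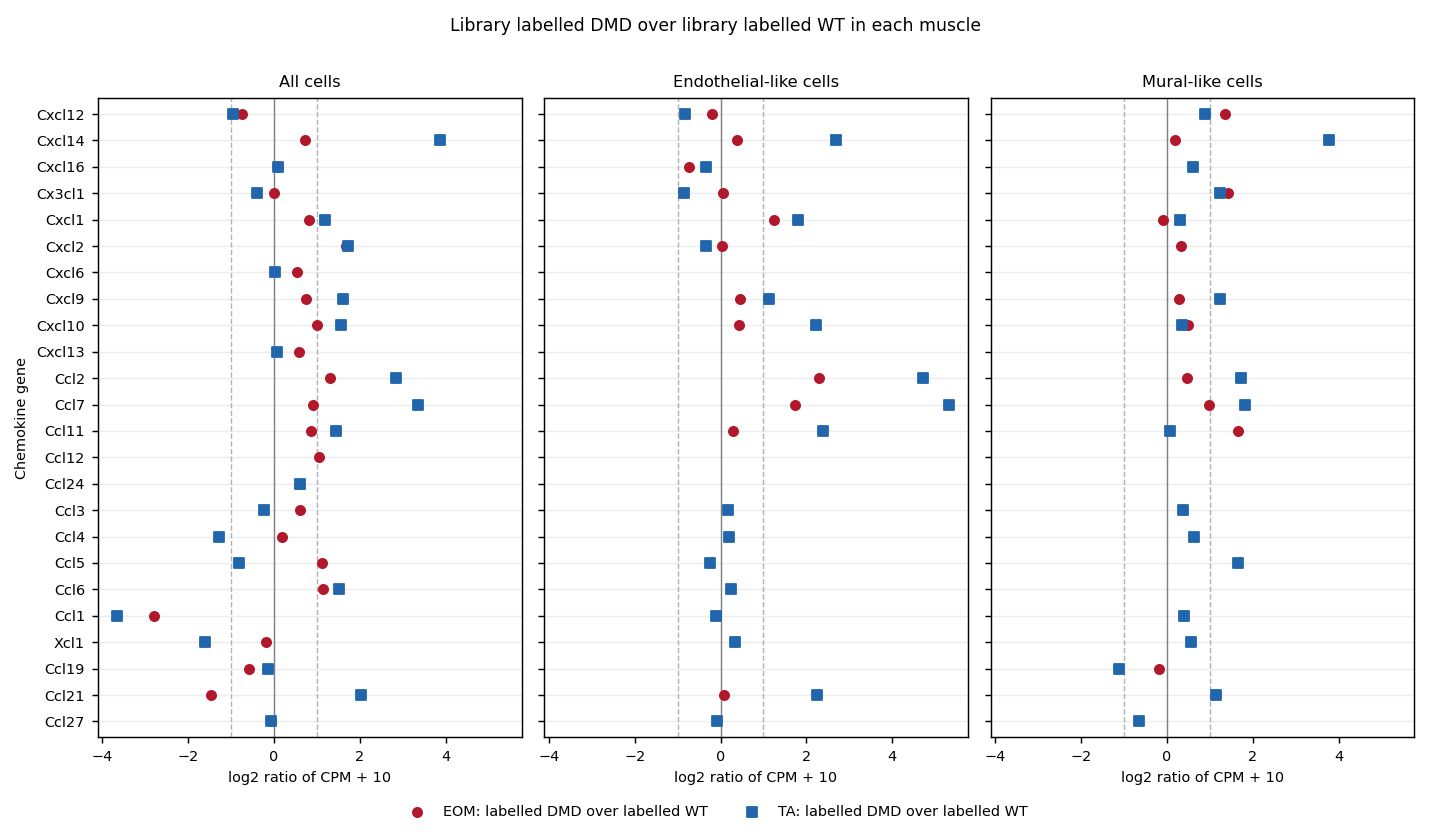
Log2 ratio of CPM + 10 (horizontal axis) of the library labelled DMD over the library labelled WT for chemokine genes in all cells, endothelial-like cells and mural-like cells; circles are EOM, squares are TA, and dashed lines mark 2-fold. In endothelial-like cells Ccl7 lies at 1.74 in EOM and 5.32 in TA, and Ccl2 at 2.30 in EOM and 4.73 in TA, while over all cells Ccl21 lies at -1.46 in EOM and 2.02 in TA.

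Between muscles under the DMD label, the count of higher members was larger in EOM over all cells and in mural-like, macrophage/monocyte-like and FAP/fibroblast-like cells. It was larger in TA in the other classes compared. Under the WT label it was larger in EOM over all cells and in mural-like and endothelial-like cells, and equal in satellite-like and erythroid-like cells. Among the libraries labelled DMD 11 of 29 members were higher in EOM over all cells and 1 was lower, against 2.18% higher and 1.6% lower of 14933 genes. Among the libraries labelled WT 11 of 26 were higher and 1 was lower, against 2.94% higher and 2.28% lower of 13490 genes. Cxcl1, Cxcl2, Ccl3, Ccl6, Ccl11, Ccl19 and Ccl24 were higher in EOM in both pairs, and Ccl1 was lower in both. In mural-like cells 6 of 19 members were higher and 2 lower in EOM labelled DMD than in TA labelled DMD, against 1.13% higher and 1.3% lower of 11052 genes. In EOM labelled WT 7 of 8 were higher than in TA labelled WT and none was lower, against 1.01% higher and 2.47% lower of 8518 genes. Ccl2, Ccl7, Ccl11, Ccl19, Cxcl1 and Cxcl10 were higher in both pairs. The mural-like cells in the Kcnj8 and Vtn cluster were 102 of 156 in EOM labelled DMD, 71 of 90 in EOM labelled WT, 261 of 1659 in TA labelled DMD and 119 of 179 in TA labelled WT. Within it Cxcl10 stood at 2105 CPM in EOM labelled DMD, 1057 in EOM labelled WT, 552 in TA labelled DMD and 307 in TA labelled WT.

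Macrophage/monocyte-like cells could be compared between the libraries labelled DMD. There 9 of 16 members were higher in EOM and 2 were lower, against 4.47% higher and 9.06% lower of 7558 genes. Cxcl13 was higher 19.4-fold, Ccl12 19.3-fold, Ccl24 7.24-fold, Cxcl1 4.57-fold and Ccl2 3.37-fold. Over all cells of TA labelled DMD Cxcl13 had only 10 UMIs and Ccl12 only 8, and few cells carried the bulk of Ccl12 in EOM labelled DMD. The lower ones were Cxcl12 and Cxcl14, at 355 and 126 CPM in TA labelled DMD, where erythroid-like cells had 439 and 1012 CPM.

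In other classes the direction was mixed or went the other way. In endothelial-like cells 2 of 18 members were higher in EOM labelled DMD than in TA labelled DMD, Cxcl12 and Cx3cl1, and 6 were lower, Ccl2, Ccl7, Ccl11, Ccl21, Cxcl10 and Cxcl14, against 0.881% higher and 1.8% lower of 11804 genes. In FAP/fibroblast-like cells 7 of 20 were higher, among them Ccl7, Ccl11, Cxcl1 and Cxcl9, and 4 were lower, against 2.01% higher and 3.86% lower of 11340 genes. Different clusters made up that class: Ces1d and Pi16 cells were 572 of 671 in EOM labelled DMD, and Stmn2 and Sfrp1 cells 1060 of 1101 in TA labelled DMD. Its median UMIs per cell were 7041 in EOM labelled DMD and 858 in TA labelled DMD. The part of makeup and depth in this count was not tested. In satellite-like cells 1 of 9 was higher, Ccl7, and 3 were lower, Cxcl12, Ccl2 and Cxcl14, against 2.24% higher and 5.85% lower of 9455 genes. In Schwann-like cells 0 of 7 were higher and 5 were lower, against 2.74% higher and 8.61% lower of 7839 genes. In tenocyte-like cells, the cells of tendon, 2 of 7 were higher and 4 lower, against 5.27% higher and 8.33% lower of 7361 genes, and in the Fcnb and Plac8 cluster 2 of 13 were higher and 6 lower, against 3.18% higher and 8.41% lower of 6222 genes. In myofibre-like cells the 1 member with enough UMIs, Cxcl12, was lower, against 17.6% higher and 11.9% lower of 3684 genes. Cxcl12 was lower in EOM in each of these classes but the endothelial-like, and Cxcl14 in the endothelial-like, satellite-like, Schwann-like, tenocyte-like and Fcnb and Plac8 cells. Both were the leading members of erythroid-like cells of TA labelled DMD, and the part of free RNA in these directions was not tested.

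Between the libraries labelled WT, endothelial-like cells had 1 of 10 members higher in EOM, Cxcl12, and none lower, against 0.388% higher and 0.454% lower of 10571 genes. Satellite-like cells had 2 of 6 higher, Cxcl12 and Cxcl16, and 2 lower, Ccl7 and Cxcl14, against 3.35% higher and 2.69% lower of 8090 genes. Erythroid-like cells had 1 of 2 higher, Cxcl1, and 1 lower, Cxcl12, against 1.04% higher and 29.3% lower of 1254 genes.

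Of 23 chemokine receptor genes listed, 21 were in the gene table, and Ccr2 and Ackr1 were not matched by symbol. Over all cells 1 of 10 receptors with enough UMIs was higher in TA labelled DMD than in TA labelled WT and 1 was lower, against 2.8% higher and 1.42% lower of all genes. None of 13 was either in EOM, against 1.27% higher and 0.375% lower. Ackr3, the scavenger of Cxcl12, stood at 485 CPM in EOM labelled DMD, 403 in EOM labelled WT, 179 in TA labelled DMD and 249.9 in TA labelled WT. Cxcr4, the signalling receptor of Cxcl12, stood at 106 CPM in EOM labelled DMD, 64.2 in EOM labelled WT, 117 in TA labelled DMD and 257 in TA labelled WT. In TA labelled WT 1535 of its 1728 UMIs lay in the endothelial-like class that also held Cxcl12. Cxcr2, the receptor of Cxcl1 and Cxcl2, had 20 UMIs in EOM labelled DMD, 0 in EOM labelled WT, 8 in TA labelled DMD and 1 in TA labelled WT, and all those of EOM labelled DMD lay in neutrophil-like cells. Xcr1 had 34 UMIs in EOM labelled DMD, 2 in EOM labelled WT, 0 in TA labelled DMD and 1 in TA labelled WT.

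Of 10 cytokine genes known to induce chemokines, 1 of 6 with enough UMIs was higher in TA labelled DMD and 2 of 4 in EOM labelled DMD, over all cells, against 2.8% and 1.27% of all genes in TA and EOM, and none was lower. Il1b stood at 221 CPM in EOM labelled DMD, 33.9 in EOM labelled WT, 30.6 in TA labelled DMD and 22 in TA labelled WT. Il6 stood at 32.1 CPM in EOM labelled DMD, 5.06 in EOM labelled WT, 22.5 in TA labelled DMD and 3.42 in TA labelled WT. Ifng, the inducer of Cxcl9 and Cxcl10, had 0 UMIs in EOM labelled DMD, 2 in EOM labelled WT, 5 in TA labelled DMD and 11 in TA labelled WT. Of 13 digestion and stress response genes, 11 were measured, and their summed level was 30021 CPM in EOM labelled DMD, 20252 in EOM labelled WT, 26228 in TA labelled DMD and 19236 in TA labelled WT. Over all cells 1 of 11 was higher and none was lower in TA labelled DMD, against 2.8% higher and 1.42% lower of all genes. In EOM labelled DMD the counts were the same, against 1.27% higher and 0.375% lower. In endothelial-like cells 1 of 11 was higher and 2 were lower in TA labelled DMD, against 2.88% higher and 1.76% lower. There 2 of 11 were higher and 1 was lower in EOM labelled DMD, against 1% higher and 0.572% lower. In mural-like cells 2 of 11 were higher and 1 was lower in EOM labelled DMD, against 4.48% higher and 2.16% lower of all genes. In TA labelled DMD 4 of 11 were higher and none was lower, against 3.35% higher and 1.65% lower of all genes. The part of digestion in the chemokine levels was not tested.

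Most members were held by few cells. Over all cells, the cells that held 50% of the Ccl2 UMIs, of those with any, were 36 of 402 in EOM labelled DMD, 8 of 108 in EOM labelled WT, 107 of 1550 in TA labelled DMD and 6 of 64 in TA labelled WT. For Cxcl12 they were 146 of 990 in EOM labelled DMD, 131 of 696 in EOM labelled WT, 462 of 3961 in TA labelled DMD and 321 of 1614 in TA labelled WT. For Ccl5 they were 7 of 52 in EOM labelled DMD, 3 of 21 in EOM labelled WT, 3 of 58 in TA labelled DMD and 1 of 13 in TA labelled WT. The Poisson intervals treat UMIs as independent and are too narrow for members held this way.

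**Figure D5:**
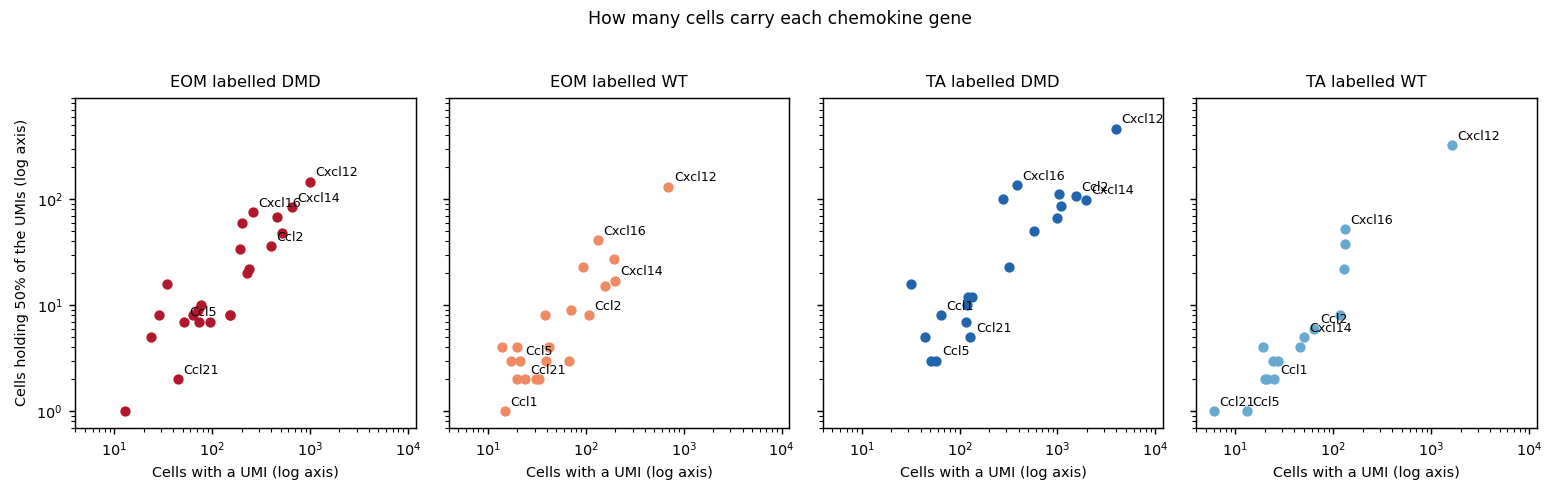
Number of cells with a UMI of a chemokine gene (horizontal, log axis) against the number of cells that hold 50% of its UMIs (vertical, log axis), a point for each gene with at least 30 UMIs in the library. Cxcl12 lies at 3961 and 462 cells in TA labelled DMD, while Ccl1 lies at 15 and 1 in EOM labelled WT.

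Among the 15 members with at least 30 UMIs in every library, the named class with the highest level, of those with at least 20 cells, was the same in all 4 libraries for 2, Cxcl12 in endothelial-like and Cxcl10 in mural-like cells. With classes of at least 5 cells it was the same for 6, with Ccl4, Ccl5 and Xcl1 in NK cell-like cells and Cxcl14 in FAP/fibroblast-like cells added. Ccl2 was highest in mural-like cells of EOM labelled DMD and TA labelled DMD, in macrophage/monocyte-like cells of EOM labelled WT and in Schwann-like cells of TA labelled WT, among classes of at least 20 cells. Ccl7 was highest in macrophage/monocyte-like cells of both EOM libraries and in mural-like cells of both TA libraries, but the intervals of these 2 classes overlap in EOM labelled DMD and in TA labelled DMD, and TA labelled WT had only 2 macrophage/monocyte-like cells. For Ccl2 the intervals of the first 2 classes overlap in EOM labelled DMD and in TA labelled WT. An unnamed cluster led by Apod and Tenm2 is not counted among these classes, and its Ccl7 level was 707 CPM (620.1–803) in EOM labelled DMD, 890.3 (708–1105) in EOM labelled WT, 1521 (1384–1668) in TA labelled DMD and 1496 (1059–2054) in TA labelled WT. Its cells numbered 25 in EOM labelled DMD, 14 in EOM labelled WT, 83 in TA labelled DMD and 5 in TA labelled WT.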

How the data were processed

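The deposited matrices hold raw UMI counts per gene and cell barcode, which the authors made with Cell Ranger (version 4.0.0 per the file headers) on the rat build rn6, per the submitters' processing notes. Of 17504 barcodes, those with at least 200 genes and at most 20% mitochondrial UMIs were kept (14233). Scrublet's own threshold marked 30 as doublets, so the highest scores were removed up to 0.8% per 1000 cells (676), which left 13557 cells.

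Cells were clustered with scanpy 1.11.5 and leidenalg 0.10.2 (2000 variable genes without chemokine genes, 30 principal components, 15 neighbours, resolution 1.0). A cluster could be named where at least 3 markers of a class were 2-fold over the median cluster and in at least 10% of its cells. It stayed unnamed where another class had as many or more markers (at least 1) among its 10 leading genes. The exception was a sole other class that had more and took the name. It also stayed unnamed where no own marker was among its 50 leading genes, unless all own markers passed. The first condition left the Sfrp1 and Prg4 cluster unnamed. These rules were settled after the clusters were seen. Names are rebuilt and not the authors'. Counts were summed per class and library. Shares have exact binomial and levels exact Poisson 95% intervals (scipy 1.17.1). With 1 library a group no test across samples was run. The log2 ratios and the 2-fold rule add 10 CPM to each side. Values given as a fold or a plain ratio are quotients of CPM without that addition, and are larger where a level is low. The calculations were tested on simulated data. All 34 members are named, by their symbols. The members and lists were chosen with earlier results of these data known.

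The alternatives were stricter cell filters, no doublet removal, resolution 0.5, chemokine genes in the clustering, each library clustered alone, cells thinned to 1000 UMIs, a 1 CPM prior, other totals and no UMI minimum.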

Additional observations from a re-analysis of the deposited data

Results flagged for a closer look

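For Ccl21 and Ccl7 the ratio of labelled DMD over labelled WT had opposite signs in the 2 muscles, and the difference between muscles was not tested. Over all cells the log2 ratio of CPM + 10 of Ccl21 was -1.46 in EOM and 2.02 in TA, and the cells that held 50% of its UMIs, of those with any, were 2 of 45 in EOM labelled DMD, 2 of 24 in EOM labelled WT, 5 of 129 in TA labelled DMD and 1 of 6 in TA labelled WT. In satellite-like cells the log2 ratio of Ccl7 was 2.06 in EOM, with 67 UMIs in EOM labelled DMD and 4 in EOM labelled WT, and -1.27 in TA, with 13 UMIs in TA labelled DMD and 18 in TA labelled WT. These Ccl7 UMIs lay in 8 of 225 cells in EOM labelled DMD and 4 of 135 in EOM labelled WT. In TA they lay in 7 of 315 cells in TA labelled DMD and 8 of 56 in TA labelled WT.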

How the results depend on the processing

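No paired analysis was possible because each group has 1 library and the labels give no replicate numbers. Leaving out a replicate could not be done for the same reason. The number of members higher in endothelial-like cells of TA labelled DMD was 8, and 5 without the cluster led by Selp and Plvap. Over all cells of EOM labelled DMD it was 6, and 3 with mitochondrial, haemoglobin and ribosomal protein UMIs out of the totals or 10 without the 5 cells with most UMIs of each member. In endothelial-like cells of EOM labelled DMD it was 3, and 1 with stricter cell filters and 1 with cells thinned to 1000 UMIs. The same class led in all 4 libraries for 2 members, 4 with stricter filters, 5 with each library clustered alone and 6 among classes of at least 5 cells. The cause was not tested. Of 61 called ratios over 12 settings, 537 comparisons in all, 48 fell under 2-fold and 4 reversed. All 4 came without the 5 cells with most UMIs of the member, where the log2 ratio of TA labelled DMD over TA labelled WT was 1.10 for Ccl1 and 0.36 for Ccl4 over all cells, and 5.12 for Ccl1 and 0.63 for Ccl4 in NK cell-like cells. The settings without those 5 cells, without the Selp and Plvap cluster and with classes of at least 5 cells were chosen after seeing the data. Depth limits TA labelled DMD most, with a median of 1224 UMIs a cell.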

Other observations

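The barcodes that were not analysed numbered 832 in EOM labelled DMD, 668 in EOM labelled WT, 980 in TA labelled DMD and 1467 in TA labelled WT. They held chemokine transcripts at 3046 CPM in EOM labelled DMD, 802 in EOM labelled WT, 2139.8 in TA labelled DMD and 438 in TA labelled WT. Each of these 4 levels lay below that of the analysed cells of its library.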
